A study of Capra hircus with 9 samples.

Results

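The export of immunoglobulin A (IgA) into saliva rests on plasma cells that make the antibody and on gland epithelial cells that carry it across. The values below follow 8 genes of this route in the submandibular gland of female Lubo goats: the epithelial receptor PIGR and the plasma cell genes JCHAIN, IGHA1, MZB1, TNFRSF17, DERL3, POU2AF1 and PRDM1. They were chosen by name, as every transcript in the deposited table that carries the gene's symbol, and their 16 transcripts were summed to the 8 genes, of 21229 genes in all. The study asked how gene expression in this salivary gland differs with age. It sequenced total RNA depleted of ribosomal RNA of 9 glands from 9 healthy goats kept under the same conditions, with 3 kids of 1 month, 3 unbred adolescent goats of 12 months and 3 adults of 24 months. The goats of all 3 ages were fasted and anaesthetised with xylazine hydrochloride before slaughter, and age is the only difference between groups in the labels. Levels are given as CPM, the expected count of a gene per 1000000 counts of its library after TMM scaling, and are not divided by transcript length. Levels of different genes are therefore not compared with each other. The total expected count was from 1.15e+07 to 2.49e+07 per library and was lower in each 1-month library than in each older one.

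Plasma cells are the antibody-secreting end stage of the B cell lineage, and those of salivary glands mostly make dimeric IgA. The J chain joins a pair of IgA monomers into a dimer, and the polymeric immunoglobulin receptor, the product of PIGR, binds that dimer on the basal side of the epithelial cell, carries it through the cell and releases it at the lumen with a piece of the receptor attached. RNA of the receptor and RNA of its cargo thus come from different cells of the same gland, and a bulk library measures both.

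The label "submandibular gland" was checked against marker genes before the members were compared, and 1-month replicate 2 stood apart. The summed level of 14 gland epithelium genes was 2792, 802 and 1899 CPM in 1-month replicates 1, 2 and 3, and between 6149 and 7844 CPM in the 6 older libraries. In 1-month replicate 2 the water channel gene AQP5, a marker of acinar cells, stood at 0.502 CPM and the epithelial factor EHF at 1.43 CPM, against 132 CPM or more and 220 CPM or more in the other 8 libraries. The 12 thymocyte genes summed to 3706, 14099 and 1838 CPM in the 1-month libraries and to between 31.9 and 57 CPM in the older ones, and the 7 thymic epithelium genes to 276, 1136 and 106 CPM against 0.942 to 2.68 CPM. All 12 thymocyte genes were above 3 counts in each 1-month library, and 7 to 11 of them were in the older ones. The 14 B cell genes found in the table summed to 150, 434 and 398 CPM against 32.4 to 62.1 CPM, the 6 lymph node stroma genes found to 72.4, 104 and 241 CPM against 7.62 to 41.9 CPM, and the 10 neutrophil and precursor genes to 19.9, 76.8 and 1165 CPM against 8.26 to 314 CPM. Thymus markers thus separated the 1-month libraries from the others, and were highest where gland markers were lowest. Their part in the differences between ages given below was not tested, and each comparison with the 1-month goats is given with and without 1-month replicate 2.

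**Figure D1:**
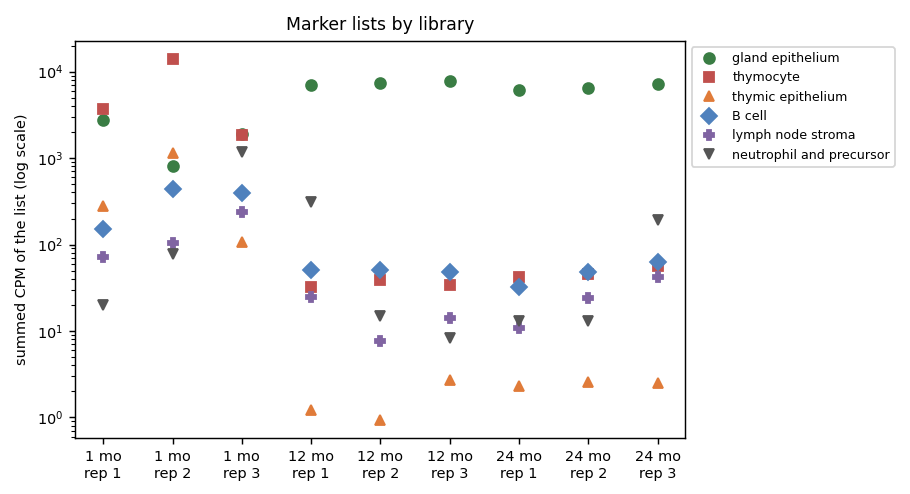
Summed CPM of 6 marker gene lists (log axis) in each of the 9 libraries, by age and replicate number, 1 point per list and library. The gland epithelium list is at 802 CPM in 1-month replicate 2 and at 1899 to 7844 CPM elsewhere, and the thymocyte list is at 1838 to 14099 CPM in the 1-month libraries and at 31.9 to 57 CPM in the older ones.

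PIGR, the receptor, took 0.782% to 1.53% of all expected counts in the older glands and at most 0.138% in the kids. It stood at 859, 4.8 and 1038 CPM in the 1-month replicates 1, 2 and 3, at 16978, 13289 and 13721 CPM at 12 months and at 10070, 16680 and 9071 CPM at 24 months. Every older library lay above every 1-month library, and the 12-month and 24-month libraries overlapped. The means were 634 ± 552, 14662 ± 2017 and 11940 ± 4135 CPM (SD, n = 3 each). With all libraries the fitted log2 fold change from 1 to 12 months was 4.61 (SE 1.56) and missed the threshold of 0.05 (adjusted p = 0.0797, edgeR quasi-likelihood test), and from 1 to 24 months it was 4.39 (SE 1.47, adjusted p = 0.0728). On the same 6 libraries PIGR passed in both comparisons with DESeq2 (adjusted p = 6.02e-04 and 4.11e-04), edgeR's exact test (0.00916 and 0.00894) and limma on log2(CPM + 1) (0.0497 and 0.0383). It also passed in the edgeR fit of all 9 libraries (0.0351 and 0.0361). From 1 to 12 months it did not pass in edgeR with upper-quartile factors or with the replicate number as a block. Without 1-month replicate 2 PIGR rose in both comparisons, by 3.94 (SE 0.26, adjusted p = 3.78e-04) and by 3.76 (SE 0.48, adjusted p = 0.00103) on the log2 scale, or 15.4-fold and 13.6-fold. In tissue libraries of this kind fewer cells of a type and less RNA per cell cannot be told apart.

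IGHA1, the constant region of the IgA heavy chain, was the member with the largest fitted change against 1 month. Its RNA is counted in the table only in newly assembled transcripts, 1 of which held 99.9% of the gene's counts, and reads of immunoglobulin chains can be divided among near-identical copies, so its level is uncertain in that respect. It was at 1180, 26.1 and 461 CPM at 1 month, at 19981, 16338 and 8884 CPM at 12 months and at 9246, 15887 and 20888 CPM at 24 months. The 1-month libraries were all below the older ones, and the 12-month and 24-month libraries covered the same range. IGHA1 rose from 1 to 12 months by 4.83 (SE 1.30, adjusted p = 0.0451) and from 1 to 24 months by 4.93 (SE 1.27, adjusted p = 0.0331) on the log2 scale. Without 1-month replicate 2 the rises were 4.19 (SE 0.60, adjusted p = 0.00341) and 4.32 (SE 0.63, adjusted p = 0.00186). With any single library other than 1-month replicate 2 left out, the change from 1 to 12 months had an adjusted p between 0.0555 and 0.126, and that from 1 to 24 months passed without 1-month replicate 1 (0.0313) but not without 1-month replicate 3 (0.0894) or without 24-month replicate 1, 2 or 3 (0.0658, 0.0903 and 0.106).

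JCHAIN, which encodes the joining chain, was at 357, 3.73 and 870 CPM at 1 month, at 2887, 2854 and 2514 CPM at 12 months and at 1857, 771 and 994 CPM at 24 months. The 12-month libraries were the highest and did not overlap with either other age, and 24-month replicate 2 lay below 1-month replicate 3. The log2 fold change from 1 to 12 months was 2.83 (SE 1.40, adjusted p = 0.18), and without 1-month replicate 2 JCHAIN rose by 2.16 (SE 0.40, adjusted p = 0.00747). From 1 to 24 months it was 1.69 (SE 1.27, adjusted p = 0.381) with all libraries and 1.08 (SE 0.51, adjusted p = 0.139) without that replicate. Between 12 and 24 months it was -1.15 (SE 0.33), with a p of 0.00635 in edgeR that did not pass once adjusted over all genes (adjusted p = 0.426). JCHAIN passed there only with 24-month replicate 1 left out (-1.59, adjusted p = 0.00862).

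TNFRSF17 encodes BCMA, the survival receptor of long-lived plasma cells for the ligands APRIL and BAFF. It was a gene of low level, at 1.99, 0.144 and 3.86 CPM at 1 month, at 13.5, 17.9 and 15 CPM at 12 months and at 7.1, 12.2 and 10.7 CPM at 24 months. The value in 1-month replicate 2 comes from 2.7 expected counts, below the 3 counts taken as the floor here. The ages did not overlap, with the 12-month libraries highest and the 1-month libraries lowest. The log2 fold change was 3.03 (SE 0.88, adjusted p = 0.0548) from 1 to 12 months and 2.47 (SE 0.88, adjusted p = 0.0866) from 1 to 24 months. It passed in both with all libraries under DESeq2 (adjusted p = 0.00314 and 0.0214), edgeR's exact test (0.00619 and 0.0307), limma on log2(CPM + 1) (0.0163 and 0.0269) and the edgeR fit of all 9 libraries (0.0239 and 0.0441). From 1 to 12 months it did not pass in edgeR with upper-quartile factors or with the replicate number as a block. In the edgeR test it rose in both comparisons without 1-month replicate 2, by 2.39 (SE 0.34, adjusted p = 0.00341) and by 1.88 (SE 0.50, adjusted p = 0.0224).

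**Figure D2:**
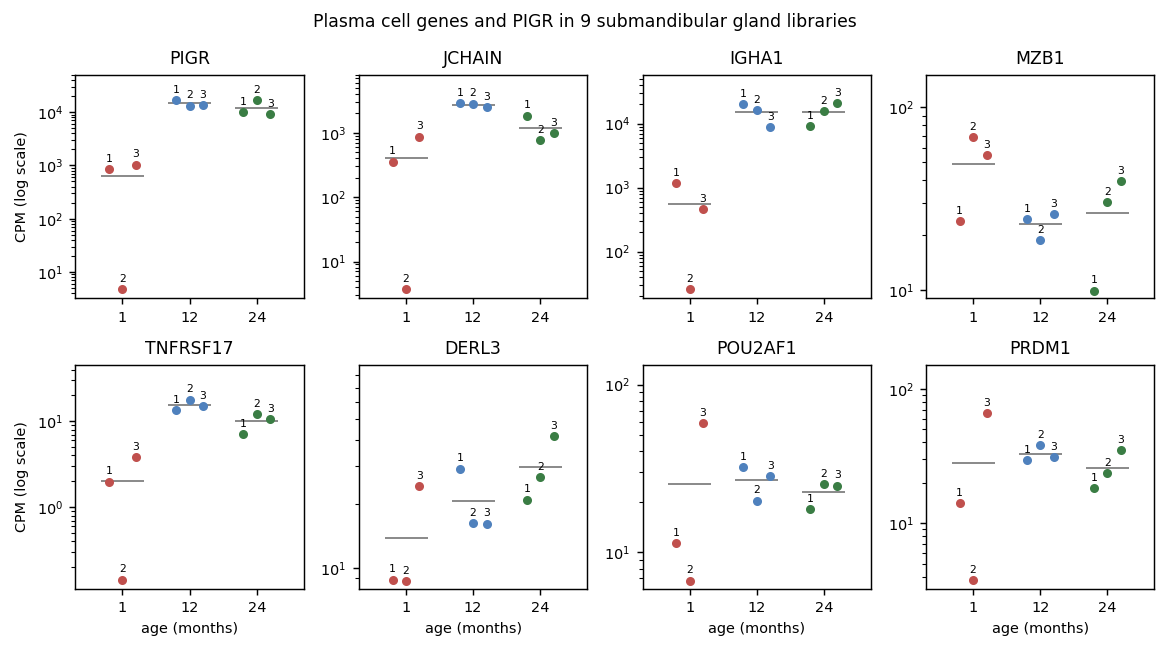
CPM (log axis) of the 8 genes in each library against age in months, with the replicate number above each point and the group mean as a grey line. PIGR, IGHA1 and TNFRSF17 lie higher in all 6 older libraries than in the 1-month ones, JCHAIN does so at 12 months, and the other 4 genes overlap between ages.

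With all libraries none of the other 4 plasma cell genes passed in any comparison in edgeR, and their groups overlapped. PRDM1, which encodes BLIMP1, the factor that directs B cells to the plasma cell state, was at 14.1, 3.76 and 65.6 CPM at 1 month, at 29.5, 37.9 and 31.1 CPM at 12 months and at 18.3, 23.7 and 35.1 CPM at 24 months. POU2AF1, a coactivator of immunoglobulin gene transcription in B cells and plasma cells, was at 11.3, 6.77 and 58.9 CPM, at 32.1, 20.3 and 28.3 CPM and at 18, 25.4 and 25 CPM at the 3 ages. For both genes 1-month replicate 3 was the highest of the 9 libraries and 1-month replicate 2 the lowest. Their log2 fold changes from 1 month to 12 and 24 months were between -0.02 and 0.33 with all libraries (adjusted p 0.798 to 0.987 in edgeR). Without 1-month replicate 2 they were between -0.52 and -0.29 (adjusted p 0.515 to 0.708). From 12 to 24 months they were -0.31 for PRDM1 and -0.18 for POU2AF1 (adjusted p = 0.567 and 0.706 in edgeR).

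MZB1 and DERL3 act in the endoplasmic reticulum, MZB1 as a helper of antibody folding and DERL3 in the removal of misfolded proteins. MZB1 was at 23.9, 68.7 and 55 CPM at 1 month, at 24.5, 18.8 and 26 CPM at 12 months and at 9.92, 30.2 and 39.6 CPM at 24 months. It was the only member that was higher in 1-month replicate 2 than in any other library, and its log2 fold changes were -1.06 (SE 0.43, adjusted p = 0.121) and -0.78 (SE 0.60, adjusted p = 0.396) from 1 month to 12 and 24 months, and -0.78 and -0.46 without that library (adjusted p = 0.121 and 0.567). DERL3 was at 8.86, 8.71 and 24.2 CPM at 1 month, at 29.3, 16.3 and 16.2 CPM at 12 months and at 21, 26.8 and 41.5 CPM at 24 months. Its log2 fold changes were 0.63 (SE 0.48, adjusted p = 0.366) and 1.23 (SE 0.52, adjusted p = 0.135), or 0.31 and 0.96 without 1-month replicate 2 (adjusted p = 0.626 and 0.169), and the groups of both genes overlapped in each comparison.

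Counted over the 8 members, 1 (IGHA1) passed in the comparison of 1 with 12 months and the same gene passed in that of 1 with 24 months. Both comparisons share the 1-month libraries. Over all genes tested 18.2% passed from 1 to 12 months (6.52% as higher and 11.7% as lower in the older goats) and 17.5% from 1 to 24 months (7.10% as higher and 10.4% as lower), so 1 of 8 members is near the background. By the stricter rule of the study, which also asks for an absolute log2 fold change over 2, IGHA1 was again the member called, with 11.5% and 13.2% of all genes called. Without 1-month replicate 2, 4 members rose from 1 to 12 months (PIGR, JCHAIN, IGHA1 and TNFRSF17), where 43.7% of all genes passed (21.5% as higher, 22.2% as lower), and 3 rose from 1 to 24 months (PIGR, IGHA1 and TNFRSF17), where 28.3% passed (14.1% as higher, 14.2% as lower). Every library of 12 months lay above every library of 1 month for 4 members, against 27.1% of all genes, and every library of 24 months for 3, against 20.5%. The median log2 fold change of the members was 1.73 from 1 to 12 months, beside -0.02 over all genes tested, and 1.46 from 1 to 24 months, beside -0.01.

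Between 12 and 24 months no member passed edgeR's test, with 1 (JCHAIN) at an unadjusted p under 0.05. DESeq2 passed none of the 8 either. Of all genes tested 0% passed and 11.0% had an unadjusted p under 0.05. JCHAIN and TNFRSF17 were lower in every 24-month library than in every 12-month library, as were 7.65% of all genes. The fitted log2 fold changes of the 8 members lay between -1.15 and 0.59. With 24-month replicate 1 left out, 2 members passed, JCHAIN as lower and MZB1 as higher (0.65, adjusted p = 0.043), and so did 32.4% of all genes.

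**Figure D3:**
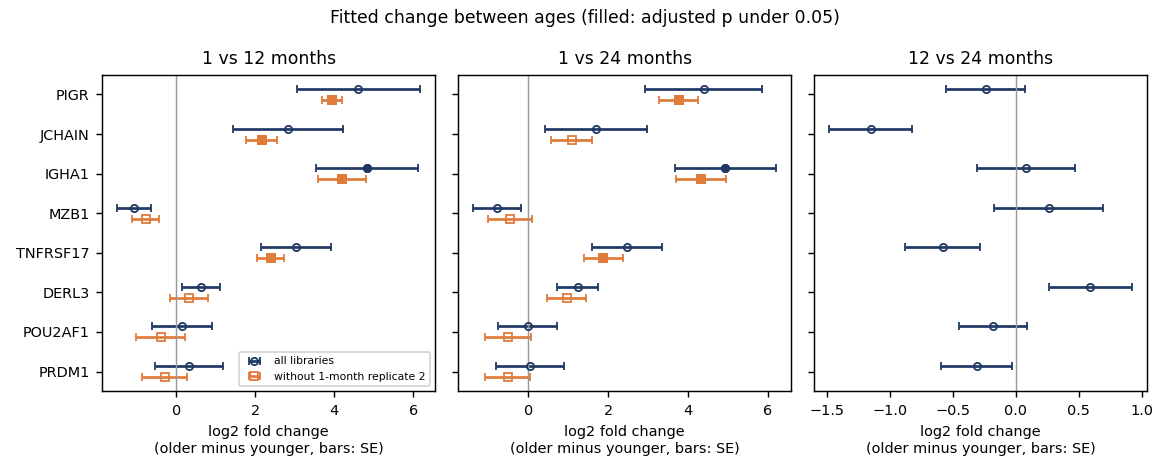
Fitted log2 fold change (older minus younger age, bars are the SE from edgeR) of the 8 genes in the 3 comparisons, with all libraries (circles) and without 1-month replicate 2 (squares), filled where the adjusted p is under 0.05. With all libraries IGHA1 is filled in both comparisons with 1 month, and without 1-month replicate 2 PIGR, IGHA1 and TNFRSF17 are filled in both and JCHAIN from 1 to 12 months.

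PIGR is made by epithelial cells, and the epithelial genes were themselves lower at 1 month, so it was also set against them within each library. Of the 14 gland epithelium genes, 3 passed as higher from 1 to 12 months and 4 from 1 to 24 months with all libraries, and 13 and 12 without 1-month replicate 2, with none lower. These counts were 21.4% and 28.6% of the list, beside 6.52% and 7.10% of all genes, and without 1-month replicate 2 they were 92.9% and 85.7%, beside 21.5% and 14.1%. The ratio of PIGR to their summed CPM was 0.308, 0.00599 and 0.547 in the 1-month replicates 1, 2 and 3 and between 1.28 and 2.55 in the 6 older libraries. The older median was 4.15 times the median of 1-month replicates 1 and 3. In 1-month replicate 2, KRT8, CDH1 and KRT19 held the most expected counts of the 14 genes (5879, 4158 and 2349). That library also had the highest thymic epithelium sum. How much of its epithelial sum came from gland cells was not tested. Taken gene by gene, the ratio of PIGR to the marker was higher in every older library than in every 1-month library for 12 of the 14 genes, and for 13 of 14 without 1-month replicate 2. These ratios were chosen after seeing the data and are a description without a test. In 1-month replicate 2 the ratio lay below that of both other kids for 12 of the 14 genes. The exceptions were EHF (3.35, against 2.81 and 4.72) and AQP5 (9.57, against 3.83 and 7.88), which rest there on 27 and 9.44 expected counts. Counts were as low there for CLDN3 and MUC1, which are among the 12, at 8.76 and 20.9.

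**Figure D4:**
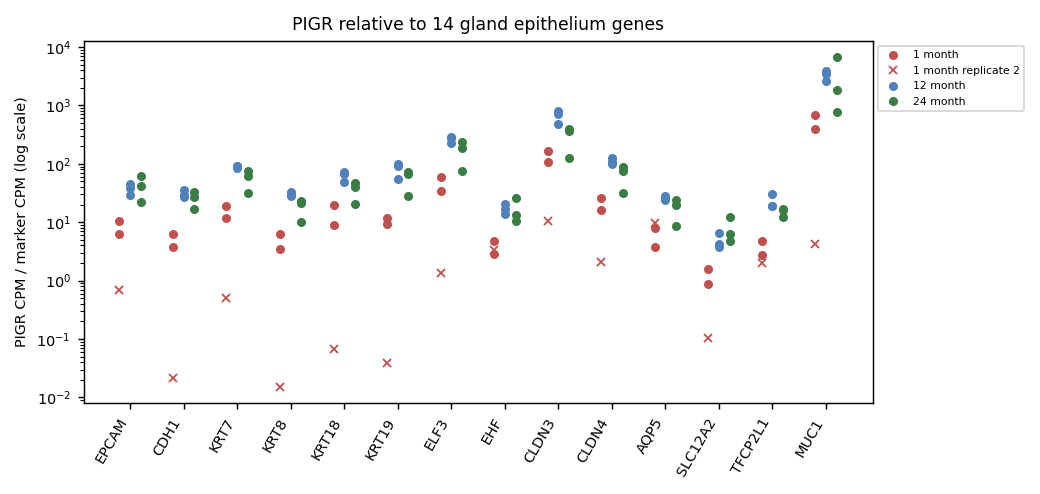
Ratio of PIGR CPM to the CPM of each of 14 gland epithelium genes (log axis), 1 point per library, coloured by age, with 1-month replicate 2 as a cross. For 12 of the 14 genes all 6 older libraries lie above all 3 of 1 month, as for 97.2% of all genes tested. For 12 of the 14 (all but EHF and AQP5) the cross lies below both other 1-month libraries.

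The plasma cell genes were set against the receptor in the same way, as CPM of each gene per 100 CPM of PIGR. JCHAIN stood at 41.6, 77.6 and 83.8 per 100 in the 1-month libraries and between 4.63 and 21.5 in the older ones. MZB1, TNFRSF17, DERL3, POU2AF1 and PRDM1 were likewise lower relative to PIGR in every older library than in every 1-month library. IGHA1 was the exception, at 137, 543 and 44.4 per 100 at 1 month and between 64.7 and 230 in the older libraries, with overlap. Across the 7 genes, a two-sided exact permutation test of 3 against 6 libraries gave p = 0.0238 for 6 genes, the smallest it can give (adjusted p = 0.0278 over the 7), and p = 0.595 for IGHA1. The separation is not particular to these genes, since the ratio to PIGR was lower in every older library for 97.2% of all genes tested. Without 1-month replicate 2 the smallest p that 2 against 6 libraries can give is 0.0714, so none could pass, and the 6 genes kept their separation.

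Relative to PRDM1, MZB1, DERL3 and POU2AF1, but not to JCHAIN and TNFRSF17, IGHA1 was higher in every older library than in every 1-month library. The share of all genes that separate from IGHA1 in this way was not computed. The separation is thus not read as particular to plasma cell genes. The ratio of IGHA1 to PRDM1 was 83.7, 6.93 and 7.04 in the 1-month libraries and between 286 and 678 in the older ones. The ratios to MZB1, DERL3 and POU2AF1 separated the 1-month libraries from the others as well, while the ratio to TNFRSF17 overlapped narrowly (up to 594 at 1 month, from 591 in the older goats) and that to JCHAIN overlapped widely, at 3.31, 7 and 0.53 against 3.53 to 21.

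Whether libraries with more plasma cell RNA also held more PIGR RNA could be asked only among the 6 older libraries, because PIGR separates the 1-month libraries from the rest. This restriction was set after seeing the data. The highest Pearson r with PIGR was 0.57 for TNFRSF17 (permutation p = 0.242, Spearman rho 0.43, permutation p = 0.419) and for POU2AF1 (permutation p = 0.233, rho 0.77, permutation p = 0.103), and the lowest was -0.24 for DERL3 (permutation p = 0.632, rho -0.09, permutation p = 0.919). Of the 7 relations none passed (lowest adjusted permutation p 0.846 for r and 0.719 for rho), and r changed sign for 4 genes when the 2 libraries farthest from the median PIGR level were left out.

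The IgA heavy chain was next set against the other heavy chains, because the receptor carries polymeric IgA and IgM and not IgG. IGHA1 made up 42.4%, 15.7% and 3.85% of the heavy-chain counts in the 1-month libraries, 96.2%, 88.2% and 70.6% at 12 months and 91%, 82.6% and 82.3% at 24 months. IgG, read from the transcript named IGHG4, took 33.1%, 33.8% and 82.4% at 1 month and 2.65% to 23.2% in the older goats, and IgM (IGHM) 24.4%, 48.7% and 13.7% against 1.19% to 7.43%. The alpha share was thus higher, and the gamma and mu shares lower, in each older library than in each kid, and among the kids the gamma share was largest in 1-month replicate 3.

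In CPM, the gamma and mu chains did not separate the ages. IGHG4 was at 921, 56.2 and 9879 CPM at 1 month and between 551 and 2917 CPM in the older goats, and IGHM at 680, 81 and 1648 CPM against 232 to 1885 CPM. Fitted as transcripts, IGHG4 had log2 fold changes of -1.0 and -0.84 (adjusted p 0.746 and 0.814 in edgeR) and IGHM of -0.71 and 0.47 (adjusted p 0.716 and 0.867). Of 24 immunoglobulin and J chain transcripts in the table, 14, 15 and 14 could be tested in the 3 comparisons and 0 passed in edgeR, with 2 in each at an unadjusted p under 0.05, where 2.98%, 1.50% and 0% of all transcripts passed. DESeq2 passed 2, 1 and 0 of them, and edgeR without 1-month replicate 2 passed 3 from 1 to 12 months (9.94% of all transcripts) and 0 from 1 to 24 months (0.601%). The main IGHA1 transcript itself, at 4.80 and 4.88 (adjusted p = 0.105 and 0.107 in edgeR), did not pass among transcripts. Its unadjusted p in edgeR was 0.0108 and 0.0106, against 0.00761 and 0.00423 for the gene.

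Antibodies also need a light chain, and its 2 types were uneven between goats. The kappa share of light-chain counts was 14.7%, 34.1% and 60.1% in the kids and ran from 1.86% in 12-month replicate 3 to 47.5% in 24-month replicate 2. The most abundant kappa transcript (IGKC) was at 30.8, 5.63 and 1737 CPM at 1 month, at 314, 954 and 32.9 CPM at 12 months and at 27.7, 1757 and 1646 CPM at 24 months. The main lambda transcript, named IGLL5 in the table, was at 244, 12.8 and 1192 CPM, at 1730, 1571 and 2125 CPM and at 1087, 1919 and 2917 CPM. The kappa level varied over more than an order of magnitude within each age, so it did not separate the ages.

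**Figure D5:**
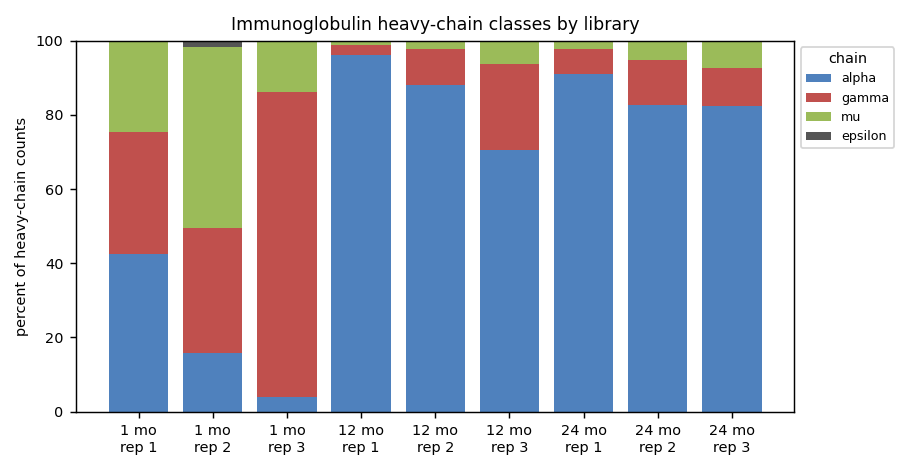
Share of heavy-chain counts (percent, stacked to 100) taken by the alpha, gamma, mu and epsilon chains in each library. The alpha chain takes 70.6% to 96.2% in the 6 older libraries and 42.4%, 15.7% and 3.85% in the 1-month replicates 1, 2 and 3.

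The secretory programme of plasma cells was followed in 28 further genes, of which 27 were tested in each comparison with 1 month. From 1 to 12 months 3 rose and 5 fell with all libraries, and from 1 to 24 months 3 rose and 3 fell, with medians of 0.80 and 0.76 on the log2 scale beside -0.02 and -0.01 over all genes. Those that rose were 11.1% of the tested list in both comparisons, beside 6.52% and 7.10% of all genes, and those that fell 18.5% and 11.1%, beside 11.7% and 10.4%. The 3 that rose in both were genes of protein entry into the endoplasmic reticulum and of its upkeep, which gland cells also use. SEC11C, a signal peptidase subunit, rose by 2.31 (SE 0.56, adjusted p = 0.034) and 2.16 (SE 0.59, adjusted p = 0.0399), SSR4, of the translocon, by 1.48 (SE 0.26) and 2.05 (SE 0.43), and HERPUD1, of the degradation machinery, by 1.32 (SE 0.26) and 1.54 (SE 0.38). Those that fell included surface receptors of lymphocytes. SLAMF7 fell (-4.84, SE 0.47, and -3.61, SE 0.58), as did FCRL5 (-4.76, SE 0.74, and -4.40, SE 1.10), and the nucleic acid sensor ZBP1 fell by 2.77 (SE 0.77) from 1 to 12 months. Without 1-month replicate 2, 13 rose and 7 fell from 1 to 12 months (48.1% and 25.9%, beside 21.5% and 22.2% of all genes) and 9 rose and 4 fell from 1 to 24 months (33.3% and 14.8%, beside 14.1% and 14.2%). XBP1, the transcription factor that expands the secretory apparatus, was at 269, 28.8 and 242 CPM at 1 month and between 828 and 1107 CPM in the older goats. In the edgeR test of each pair of ages XBP1 did not pass with all libraries, and rose without 1-month replicate 2 (1.92, SE 0.17, adjusted p = 8.77e-04, and 1.97, SE 0.35, adjusted p = 0.00435). With all libraries its change from 1 to 12 months was 2.51 (SE 0.75, adjusted p = 0.0604).

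Of 31 genes of IgA switching, plasma cell survival and homing, 25 and 26 were tested. From 1 to 12 months 1 rose and 13 fell, and from 1 to 24 months 2 rose and 10 fell, with medians of -2.04 and -1.68 beside the same -0.02 and -0.01 over all genes. Those that fell were 52% and 38.5% of the tested list, beside 11.7% and 10.4% of all genes, and those that rose 4% and 7.69%, beside 6.52% and 7.10%. CCR10, the homing receptor of IgA plasma cells, was at 0.649, 0.144 and 0.171 CPM at 1 month, at 2.61, 1.76 and 2.45 CPM at 12 months and at 1.26, 2.4 and 3.79 CPM at 24 months. It rose by 2.80 (SE 0.66, adjusted p = 0.0323) and 3.00 (SE 0.83, adjusted p = 0.0407) on the log2 scale, with 2 of the 3 kids below 3 counts, and without 1-month replicate 2 it missed the threshold from 1 to 24 months (2.63, SE 0.88, adjusted p = 0.0508). Its ligand CCL28, which mucosal and glandular epithelia secrete, was at 63.6, 0.0718 and 48.9 CPM at 1 month, at 270, 290 and 252 CPM at 12 months and at 242, 141 and 146 CPM at 24 months, and rose without 1-month replicate 2 (2.26, SE 0.17, adjusted p = 5.30e-04, and 1.75, SE 0.38, adjusted p = 0.00985). TNFSF13, which encodes the TNFRSF17 ligand APRIL, was at 30.2, 1.68 and 19.3 CPM in the kids and between 73.7 and 180 CPM in the older goats, and rose from 1 to 24 months by 3.00 (SE 0.88, adjusted p = 0.049), and in both comparisons without 1-month replicate 2 (1.64, SE 0.21, and 2.42, SE 0.46).

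Among the genes on this list that fell, the largest fitted changes from 1 to 12 months were those of CCR9, CCL25 and CXCR4. CCR9, a homing receptor of thymocytes and gut plasma cells, was at 249, 1399 and 117 CPM in the kids and between 0.0526 and 0.421 CPM in the older goats. Its ligand CCL25 was at 72.2, 332 and 28.7 CPM against 0.828 to 2.58 CPM, and CXCR4, a receptor of bone marrow homing, at 74.3, 274 and 73.6 CPM against 1.63 to 7 CPM. All 3 were highest in 1-month replicate 2, the library with the highest thymocyte and thymic epithelium sums, and the part of those cells in the fall was not tested. CCL25 is also a member of the thymic epithelium list. ICOS, a costimulatory receptor of T cells, and MADCAM1, the vascular address of mucosal homing, fell as well. Both were highest in 1-month replicate 3, where the thymocyte sum was the lowest of the kids and the lymph node stroma sum the highest. MADCAM1 is also a member of the lymph node stroma list. The part of thymus or lymph node cells in these 2 falls was not tested. ICOS was at 14.9, 15.6 and 19.3 CPM in the kids and at 0 to 0.662 CPM in the older goats, and MADCAM1 at 1.45, 2.37 and 3.72 CPM against 0 to 0.182 CPM.

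Transport of the receptor through the cell depends on vesicle proteins, of which 20 were followed and tested. From 1 to 12 months 8 rose and none fell, and from 1 to 24 months 7 rose and none fell, with medians of 1.23 and 0.94. These were 40% and 35% of the list, beside 6.52% and 7.10% of all genes as higher. The counts without 1-month replicate 2 were 12 and 8 up and none down, or 60% and 40% of the list beside 21.5% and 14.1%. RAB3B, a GTPase that binds the receptor, was at 0.535, 0.538 and 1.11 CPM in the kids and between 2.63 and 10.9 CPM in the older goats, and rose by 3.21 (SE 0.67, adjusted p = 0.0228) and 3.45 (SE 0.56, adjusted p = 0.00797). RAB3D, of secretory granules, was at 98.8, 14.6 and 66.6 CPM against 259 to 340 CPM, and AP1M2, the epithelial adaptor subunit of basolateral sorting, at 16.1, 4.48 and 11.7 CPM against 47.5 to 95.1 CPM. RAB3D rose by 2.24 (SE 0.63) and 2.59 (SE 0.65), and AP1M2 by 2.25 (SE 0.45) and 2.93 (SE 0.55). These are epithelial genes, and the gland epithelium sum was lower at 1 month as well.

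Regulators that induce PIGR in epithelial cells, and the receptors that lead to them, gave 20 tested genes. From 1 to 12 months none rose and 2 fell, and from 1 to 24 months 1 rose and 1 fell, with medians of -0.51 and -0.31. The 2 genes that passed in each comparison were 10% of the list, below the 18.2% and 17.5% of all genes, and without 1-month replicate 2 the 7 and 4 that passed were 35% and 20%, beside 43.7% and 28.3%. IRF1, the interferon-induced factor that acts on PIGR, was at 55.9, 129 and 90.2 CPM in the kids and between 10.1 and 26.5 CPM in the older goats, and fell in both comparisons (-2.82, SE 0.40, adjusted p = 0.01, and -1.80, SE 0.42, adjusted p = 0.0245). IRF1 was highest in 1-month replicate 2, the library with the highest thymocyte sum, and the part of cells other than epithelium in its fall was not tested. IL17RC, a subunit of the interleukin 17 receptor, was at 21, 3.19 and 15.3 CPM against 32.1 to 92.2 CPM and rose from 1 to 24 months by 2.60 (SE 0.64, adjusted p = 0.0281). Between 12 and 24 months none of the tested genes of these 4 lists passed in edgeR, with 2, 1, 3 and 2 genes at an unadjusted p under 0.05.

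The counts over the 4 lists moved with the library left out, as did the share of all genes that passed. From 1 to 12 months 32 of 92 tested listed genes passed with all libraries (34.8%, beside 18.2% of all genes) and 57 of 93 without 1-month replicate 2 (61.3%, beside 43.7%). Without 1-month replicate 3 it was 20 of 92 (21.7%, beside 11.4%), and without 12-month replicates 1, 2 and 3 it was 0 of 93, 1 of 94 and 2 of 94 (0%, 1.06% and 2.13%, beside 0%, 0.445% and 0.730% of all genes). From 1 to 24 months 27 of 93 passed with all libraries (29%, beside 17.5%) and 15 of 93 without 1-month replicate 3 (16.1%, beside 10.3%). Without 24-month replicates 1, 2 and 3 it was 16, 9 and 5 of 94 (17%, 9.57% and 5.32%, beside 10.3%, 3.63% and 2.06%). Between 12 and 24 months 34 of 87 passed without 24-month replicate 1 (39.1%, beside 32.4%).

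Among the genes whose levels over the 9 libraries were most like those of PIGR were ARHGAP32, LOC102180889, RBM47 and PRKAG2, with Pearson r of 0.995 to 0.996 on log2(CPM + 0.1) among 13992 genes with a mean of at least 1 CPM. Among the members, TNFRSF17 (0.982), IGHA1 (0.969) and JCHAIN (0.955) stood at ranks 172, 461 and 762 by this measure, while PRDM1 (0.749), DERL3 (0.671) and POU2AF1 (0.632) ranked lower and MZB1 had a negative r (-0.647). The genes most like JCHAIN were ATXN1, ELL2, NDFIP2, PHLDB2 and SVIP (0.991 to 0.995). Of these, ELL2, an elongation factor that plasma cells use for secreted antibody, was also on the list of the secretory programme. These values are a description without a test, since the 9 libraries fall into kids and older goats and 1-month replicate 2 lies far below the rest, and any gene with both features scores high.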

How the data were processed

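Ribosome-depleted, strand-marked total RNA libraries of 9 submandibular glands were sequenced on an Illumina HiSeq instrument. Expected counts of each transcript were deposited, which the authors estimated with RSEM after ribosomal reads were removed with Bowtie2 2.2.8, the rest aligned with TopHat2 2.1.1 and new transcripts assembled with Cufflinks (versions from the submitters' processing notes). The genome build and the strand setting of the counting are not given in the sources used here, so no coordinates are printed. The table holds 52739 transcripts, of which 10053 are new. Symbols came from the table and, for known transcripts, from RefSeq assembly ARS1.2 (34 unmatched).

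Transcripts without a symbol (432) or with a date for a symbol (4) held 0.251% to 6.01% of the counts of a library. They were left out of the library sizes and tests of genes, but not of the total expected counts or the tests of transcripts. The other transcripts were summed to 21229 genes and rounded. Each pair of ages was compared in its 6 libraries, by animal and unpaired, with edgeR 4.0.16 in R 4.3.3 (filterByExpr, TMM, glmQLFit, glmQLFTest, Benjamini-Hochberg over all genes tested). A gene passed at an adjusted p under 0.05. Ratios were tested on log2 of CPM + 0.1 with exact permutation tests in scipy 1.17.1. A floor of 3 counts is 0.120 to 0.260 CPM and covers counting error only. The animals are separate goats, but the labels name no batch. The study's FPKM threshold could not be applied. The procedure was tested on simulated data for 1 against 12 months: of 200 genes among 14395 changed by 3 on the log2 scale, 139 were among the 144 called. The simulated libraries varied independently around a common mean per gene. None stood apart in many genes together as 1-month replicate 2 did, so that case was not tested.

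The members and lists were chosen with earlier results of these data known. All 8 members are named, and of each other list no more than 3 genes that rose and 3 that fell most among those that passed against 1 month, marker genes used as such, the most abundant transcript of each immunoglobulin class, and the 5 genes most like PIGR and JCHAIN, of which 1 is not reported here. XBP1, CCL28, ICOS, MADCAM1 and ELL2 were named outside this rule after their values were seen. VPREB1 and FDCSP were not matched, and TENT5C was found as FAM46C. Alternatives were RLE and upper-quartile factors, DESeq2 1.42.0, edgeR's exact test, limma 3.58.1 on log2(CPM + 1), no filter, all 9 libraries in one fit, the most abundant transcript, the replicate number as a block, a pseudocount of 1 for ratios and leaving out each library. A fit of all libraries but 1-month replicate 2, the ratios to epithelial genes, the class shares and the restriction to older libraries were added after seeing the data.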

Additional observations from a re-analysis of the deposited data

How the results depend on the processing

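Of the 8 members 1 passed from 1 to 12 months in edgeR, against 0 with upper-quartile factors, 3 with DESeq2, 3 with the exact test, 3 with all 9 libraries in one fit, 3 with limma, 4 in one fit without 1-month replicate 2 (added after seeing the data) and 0 to 4 with single libraries left out. From 1 to 24 months 1 passed, against 3 under each of DESeq2, the exact test, one fit, limma and one fit without 1-month replicate 2, and 0 to 3 with single libraries left out. Between 12 and 24 months 0 passed, and 0 to 2 with single libraries left out. Over the 4 lists DESeq2 passed 51 and 42 genes against 32 and 27, and leaving out single libraries gave 0 to 57, 5 to 37 and, between 12 and 24 months, 0 to 34. DESeq2 passed 2 and 1 immunoglobulin transcripts against 0 and 0, and leaving out single libraries gave 0 to 3 from 1 to 12 months. Members whose ratio to PIGR passed (6) were 0 to 6 with single libraries left out, since 2 against 6 cannot pass. The replicate numbers do not pair the goats: deviations of same-numbered libraries correlated at -0.13 to -0.12, -0.25 to 0.43 and -0.14 to -0.01 in the 3 comparisons. With the replicate block 0 members and 12 listed genes passed from 1 to 12 months, and POU2AF1 changed by 0.56 from 1 to 24 months. The signs of members near no change were unstable. From 1 to 24 months PRDM1 (0.04) was -0.05 with RLE factors, -0.15 with upper-quartile factors, -0.05 with DESeq2, -0.12 with all 9 libraries, -0.63 without 1-month replicate 2 in one fit and -0.20 for its main transcript, and POU2AF1 (-0.02) was 0.50 with limma and 0.02 for its main transcript. From 1 to 12 months POU2AF1 and PRDM1 were -0.39 and -0.29 in one fit without 1-month replicate 2. With single libraries left out POU2AF1 ran from -0.39 to 1.57 and from -0.51 to 1.42, and PRDM1 from -0.29 to 1.87 and from -0.52 to 1.60. Between 12 and 24 months IGHA1 ran from -0.26 to 0.34 and MZB1 from -0.20 to 0.65. The log2 ratio to PIGR, likewise with single libraries left out, ran for IGHA1 from -1.47 to 0.32 (1 to 12 months), -1.10 to 0.69 (1 to 24), -1.29 to 0.51 (1 against both) and -0.07 to 0.60 (12 to 24), and between 12 and 24 months from -0.23 to 0.84 for MZB1, -0.13 to 0.30 for POU2AF1 and -0.48 to 0.25 for PRDM1. The cause of these shifts was not tested. TNFRSF17 in 1-month replicate 2 lies below 3 counts.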
